A study of Mus musculus with 4 samples.

Results

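The genes described here are the MHC class I antigen presentation genes H2-D1, H2-K1, H2-T22, H2-T23, B2m, Tap1, Tap2 and Tapbp, taken by symbol from the transcript tables and summed per gene identifier. All 8 were found, as 8 gene identifiers with 40 transcripts, among 45168 genes in all. RNA-seq of brain was done for C57BL/6 mice (B6, the standard laboratory strain), CAST/EiJ mice (CAST, derived from wild Mus musculus castaneus) and their hybrids, labelled F1i for C57BL/6 x CAST/EiJ and F1r for CAST/EiJ x C57BL/6. Every group was wild type by its label, and the labels used name no age or treatment. Left hemispheres of 5 mice were pooled to make each library (the series' design text speaks of whole brain), and there was 1 library per group, so none of the 4 groups has a replicate, an error or a p-value. Levels are FPKM, fragments scaled to transcript length and library size, which can be compared between genes. A gene was compared when its mean over the 4 libraries was at least 1 FPKM, and it was counted as higher or lower when log2(FPKM + 1) differed by 1 or more (2-fold); this scale understates the change of low genes.

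Class I molecules show peptides from inside the cell to T cells and NK cells. Each consists of a heavy chain, made by H2-K1 and H2-D1 for the classical molecules and by genes such as H2-T22 and H2-T23 for the non-classical ones, and of the invariant light chain beta-2-microglobulin, made by B2m. The transporter formed by Tap1 and Tap2 carries peptides into the endoplasmic reticulum, where tapasin (Tapbp) holds the empty heavy chain beside it. In brain, class I is known from microglia and endothelial cells and, at low level, from neurons, and classical heavy chains are among the most variable genes between mouse strains.

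Sequence upstream of the RefSeq starts is shown first because the 5 stretches below hold the interferon type and NF-kB type motifs found at the heavy chain genes and B2m. RefSeq promoter entries of 7 genes were matched by symbol in the RefSeq table (GRCm38.p6), and the 250 bases before each RefSeq start were searched on both strands for GGGATTCCC (an NF-kB type motif) and for GAANNGAAA and GAAANNGAA (interferon regulatory factor type motifs that do not contain each other), letters chosen after the sequences had been seen. Each line is 30 bases of the gene's strand, 5′ to 3′, of the B6-derived reference, with matches in capitals.
H2-K1: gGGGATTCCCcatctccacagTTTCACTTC
H2-D1: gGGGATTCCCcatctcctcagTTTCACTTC
H2-T22: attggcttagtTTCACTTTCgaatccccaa
H2-T23: atcctactgctTTCTCTTTCataaagacac
B2m: tataagaacatGAAACTGAAaatgggaaag
These stretches lie at chr17:34000429-34000458 (minus strand), chr17:35262923-35262952 (plus), chr17:36042914-36042943 (minus), chr17:36032806-36032835 (minus) and chr2:122147537-122147566 (plus). Those of H2-D1 and H2-T23 lie before the RefSeq start but inside the gene as the tables list it, downstream of the start of the main transcript measured here. H2-K1 and H2-D1 differed in this stretch by A18T (H2-K1 base, position from the 5′ end, H2-D1 base), and 166 of 190 aligned bases of their windows were identical. The NF-kB type motif was found in 0.301% of 32851 promoters and either interferon type motif in 12.5%. No one of these motifs was shared by all 5 genes: GAANNGAAA and GGGATTCCC were found for H2-K1 and H2-D1, and GAAANNGAA for H2-T22, H2-T23 and B2m. None of the 3 was found in the windows of Tap1 and Tapbp. Of the other motifs searched, CCAAT was in all 7 windows (33.8% of promoters), TGACG in those of H2-K1, H2-D1, H2-T22, B2m and Tap1 (17.8%), and TATAAA in those of H2-D1 and B2m (12.4%). A match is a description of letters and not evidence that a factor binds.

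The first comparison, CAST against B6, asked how class I presentation genes differ between the parental strains. The 4 heavy chain genes were lower in CAST, though above 1 FPKM in every library, and the light chain, Tap2 and tapasin were not past the rule in either direction. Of the 7 genes compared, 4 were lower and 0 higher, where 2.25% of the 13751 genes compared were lower and 2.81% higher, 5.07% together (1.82% lower and 1.07% higher among 12293 protein-coding genes). The median difference of the 7 was -1.03, against 0.04 over all genes. In bulk tissue, fewer cells of a type and less RNA per cell cannot be told apart, and neither can lower RNA and poorer alignment of CAST reads, if all libraries were aligned to a B6-derived genome.

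**Figure D1:**
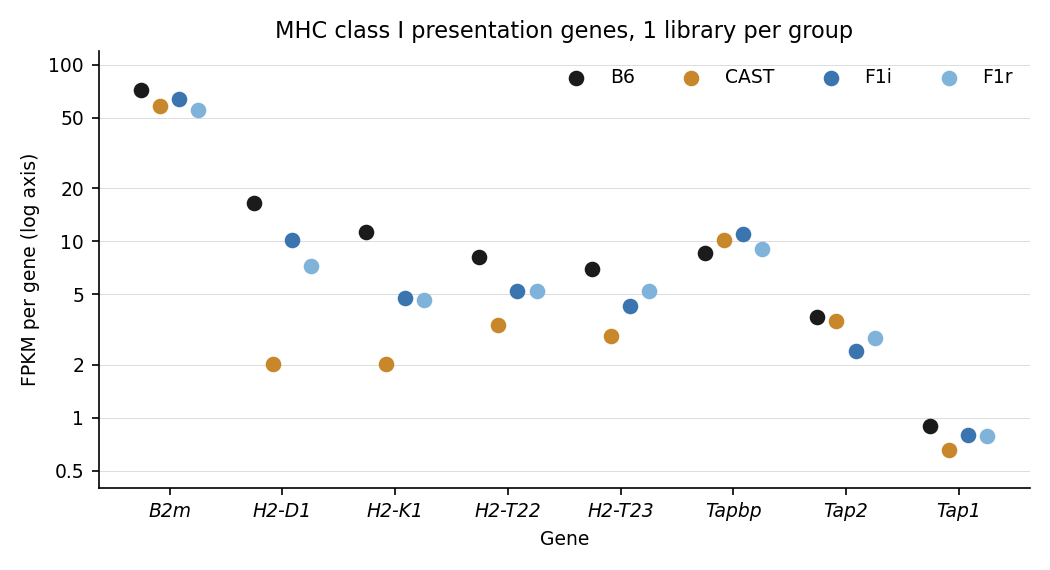
FPKM per gene (log axis) of the 8 class I presentation genes, with 1 point for each of the 4 libraries. The 4 heavy chain genes are lowest in CAST and highest in B6 with both hybrids between, whereas the points of B2m, Tapbp, Tap2 and Tap1 lie closer together.

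H2-D1 (ENSMUSG00000073411, chromosome 17, 35262730 to 35267499, GRCm38) encodes the classical D heavy chain. It had 16.5 FPKM in B6 and 2.001 in CAST, with F1i at 10.2 and F1r at 7.23. CAST was thus the lowest and B6 the highest library, with an 8.27-fold ratio on FPKM and a log2 difference of -2.55, the 26th lowest among all genes compared. From the smallest steps in FPKM, which show what 1 fragment is worth, about 1362 fragments stood behind the B6 value and about 125 behind the CAST value.

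H2-K1 (ENSMUSG00000061232, chromosome 17, 33996017 to 34000333) encodes the classical K heavy chain. It had 11.3 FPKM in B6 and 2.01 in CAST, with F1i at 4.77 and F1r at 4.63. The order was the same as for H2-D1, with a 5.60-fold ratio, a difference of -2.03 and the 47th lowest rank. The hybrids lay within 0.04 log2 of each other and nearer to CAST than to B6 on FPKM.

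H2-T22 (ENSMUSG00000056116, chromosome 17, 36037128 to 36042747) encodes a non-classical heavy chain that is a ligand of some gamma-delta T cell receptors. It had 8.14 FPKM in B6 and 3.36 in CAST, with F1i at 5.24 and F1r at 5.23. H2-T23 (ENSMUSG00000067212, chromosome 17, 36029773 to 36032855) encodes Qa-1, which is seen by the CD94/NKG2 receptors of NK cells. It had 6.97 FPKM in B6 and 2.92 in CAST, with F1i at 4.27 and F1r at 5.21. CAST was again lowest and B6 highest, but the differences of -1.07 and -1.03 were just past the rule, at ranks 264 and 295 of the 310 lower genes. When every library was rescaled to one total, the median of all genes moved to 0.34 and H2-T22 (-0.78) and H2-T23 (-0.75) no longer passed, while H2-D1 (-2.28) and H2-K1 (-1.76) did. The split of all genes then went from 387 higher and 310 lower to 591 and 177. With that median subtracted, 4 members again passed.

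B2m (ENSMUSG00000060802, chromosome 2, 122147686 to 122153083), the only member outside chromosome 17, was the most abundant. It had 71.7 FPKM in B6 and 58.4 in CAST, with F1i at 63.7 and F1r at 55.4. The lowest library was F1r and not CAST, and the CAST minus B6 difference of -0.29 turned to 0.05 when libraries were rescaled to one total. Set within each library, which removes any scaling, H2-D1 and H2-K1 together came to 38.8% of the B2m level in B6 and 6.87% in CAST, with F1i at 23.4% and F1r at 21.4%. All 4 heavy chains came to 59.9%, 17.6%, 38.4% and 40.2% in the same order. Heavy chain RNA was thus lowest against light chain RNA in CAST on either sum.

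Tap1 (ENSMUSG00000037321, chromosome 17, 34187553 to 34197225) was the lowest member and, with a mean of 0.786 FPKM, was not compared. It had 0.898 FPKM in B6 and 0.653 in CAST, with F1i at 0.800 and F1r at 0.791, from about 55 to 112 fragments per library. Tap2 (ENSMUSG00000024339, chromosome 17, 34203527 to 34216321) had 3.73 FPKM in B6 and 3.54 in CAST, with F1i at 2.37 and F1r at 2.81. Here both parents were above both hybrids, and the parents differed by -0.06 (0.21 after rescaling to one total). This sum includes the short transcripts ENSMUST00000131105 (376 bases) and ENSMUST00000138491 (378 bases). They were at 0.848 and 0.430 FPKM in CAST and at 0.533 and 0 in B6. The longer ENSMUST00000025197 (1.23 in B6 and 0.796 in CAST) and ENSMUST00000127543 (1.96 and 1.47) were both lower in CAST, so the near equality rests on the short ones. Tapbp (ENSMUSG00000024308, chromosome 17, 33915899 to 33929288) had 8.52 FPKM in B6 and 10.1 in CAST, with F1i at 10.9 and F1r at 9.06. It was lowest in B6, and its difference of 0.22 did not pass the rule.

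**Figure D2:**
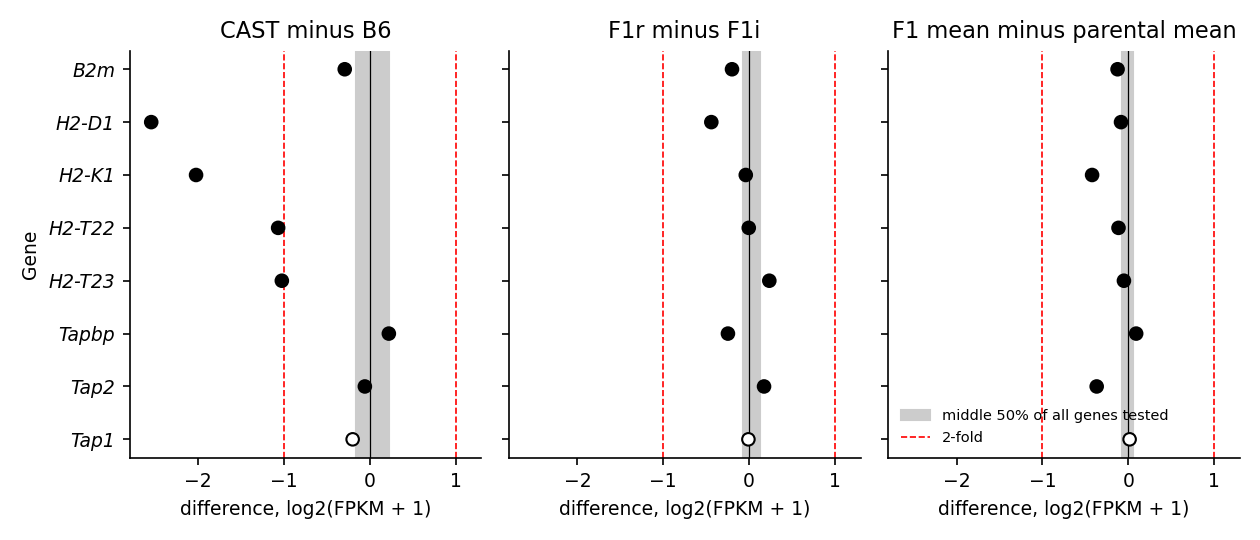
Differences on the log2(FPKM + 1) scale for each gene in 3 comparisons, with the middle 50% of all genes compared in grey and 2-fold as dashed lines; the open point (Tap1) was under 1 FPKM and not compared. Only the 4 heavy chains in CAST minus B6 lie past a dashed line, H2-T22 and H2-T23 barely.

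Sequence shared with other genes sets how far these values can be assigned to one heavy chain. Of all 31-base words of a gene's annotated transcripts, 51% recur in another gene for H2-T22, 26.7% for H2-D1, 24.5% for H2-T23 and 22.8% for H2-K1, against 4.62% for Tapbp, 1.34% for Tap2, 0.825% for Tap1 and 0% for B2m. H2-T22 shared most with H2-T10 (47.2% of its words), H2-D1 with H2-K1 (13.8%), H2-K1 with H2-D1 (11.1%) and H2-T23 with the pseudogene H2-T-ps (12.4%). The 4 values are therefore uncertain one by one. FPKM times length in kb was summed over 18 class I heavy chain genes, so that a fragment misplaced among them stays in the sum, and gave 86.9 in B6 and 28.2 in CAST, with F1i at 50.7 and F1r at 47.2, a 3.08-fold ratio between the parents. Partners outside these 18 are not in that sum, and with H2-T-ps and Gm11127 added the ratio was 3.02-fold. The 14 heavy chain genes other than the 4 members gave 10.1 in B6 and 9.27 in CAST, with F1i at 8.61 and F1r at 6.41. The lower sum in CAST thus lay almost wholly in the 4 members, and the sum of the other 14 was not higher there. Within the 14, single genes went both ways. H2-Q1 (0.626 FPKM in B6 and 0.168 in CAST), H2-Q2 (1.03 and 0.391) and H2-Q4 (0.937 and 0.239) were among those lower in CAST. Those higher in CAST were H2-Bl (0.294 and 1.85), H2-M3, H2-T10 and H2-Q10. H2-T22 summed in the same way with H2-T10 alone had a log2 ratio of -0.91, no longer past the rule.

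Overlapping genes touch some of the values as well. The antisense transcript A930015D03Rik overlaps the whole of H2-T23 and part of H2-T22, and it had 0.277 FPKM in B6 and 4.504 in CAST, with F1i at 1.90 and F1r at 1.48. It was thus highest in CAST and lowest in B6, opposite to the 2 genes it overlaps. Whether fragments were counted by strand is not given in the sources used here, so H2-T22 and H2-T23 are uncertain on this ground too. The annotated span of Tapbp overlaps Zbtb22 on the same strand (12.5 FPKM in B6 and 9.37 in CAST), and B2m lies within Patl2 on the other strand, which was at no more than 0.0581 FPKM.

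The tables list each gene by transcript, so the comparison was repeated on single transcripts. Of 12 member transcripts with a mean of at least 1 FPKM, 3 were lower in CAST and 0 higher, where 4.4% of 24634 transcripts were lower and 4.53% higher. These were the main transcripts of H2-D1, H2-K1 and H2-T23. How Cufflinks divides fragments between overlapping transcripts adds an error that the tables do not state.

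H2-K1 had 9 listed transcripts, and its 2 leading ones differed in how far apart the strains were. ENSMUST00000025181 had 7.67 FPKM in B6 and 0.0594 in CAST, with F1i at 3.0 and F1r at 2.64. ENSMUST00000172912 had 3.02 FPKM in B6 and 1.73 in CAST, with F1i at 1.72 and F1r at 1.71. In B6 the first made up 68.2% of the gene's FPKM and in CAST 2.95%, while the second went from 26.9% to 86.3%. In F1i and F1r the first made up 62.8% and 57.0%. About 756 fragments stood behind the whole gene in B6 and about 97 in CAST, so the share of the first in CAST rests on very few. Within their common span both are read from the same exons but for 27 bases at chr17:33996477-33996503 (minus strand), at the start of the last exon and coding, which the first includes and the second splices out. They are printed because they part the 2 transcripts, in capitals with 15 transcript bases on each side.
H2-K1 segment: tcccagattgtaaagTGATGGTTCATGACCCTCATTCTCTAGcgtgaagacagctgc
The transcripts also differ at both ends. Of the 55 words of 31 bases that this segment gives the first transcript, 2 recur in another gene (H2-D1), and of the 28 that skipping it gives the second, 1 does. The sequence is that of the B6-derived reference, and the CAST allele was not analysed here.

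H2-T22 showed a smaller shift. ENSMUST00000058801, which lacks one internal exon, was at 1.98 FPKM in B6, 0.703 in F1i and 1.17 in F1r and was listed at 0 in CAST; its mean was under 1 FPKM. ENSMUST00000077960, which includes that exon, was at 2.56, 1.14, 1.49 and 2.06 FPKM in B6, CAST, F1i and F1r. The exon has 105 bases (chr17:36040225-36040329, minus strand), and is printed in capitals with 15 bases of its neighbours.
H2-T22 exon: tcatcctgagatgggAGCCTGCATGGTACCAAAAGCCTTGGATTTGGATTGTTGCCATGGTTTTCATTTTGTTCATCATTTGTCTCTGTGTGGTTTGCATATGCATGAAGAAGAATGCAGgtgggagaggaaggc
Of the 134 words that set the transcript with the exon apart, 29.1% recur in H2-T10, while none of the 29 across the skipped exon recurs. The retained-intron transcript ENSMUST00000172633 held between 21.7% and 31.9% of the gene's FPKM in the 4 libraries.

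**Figure D3:**
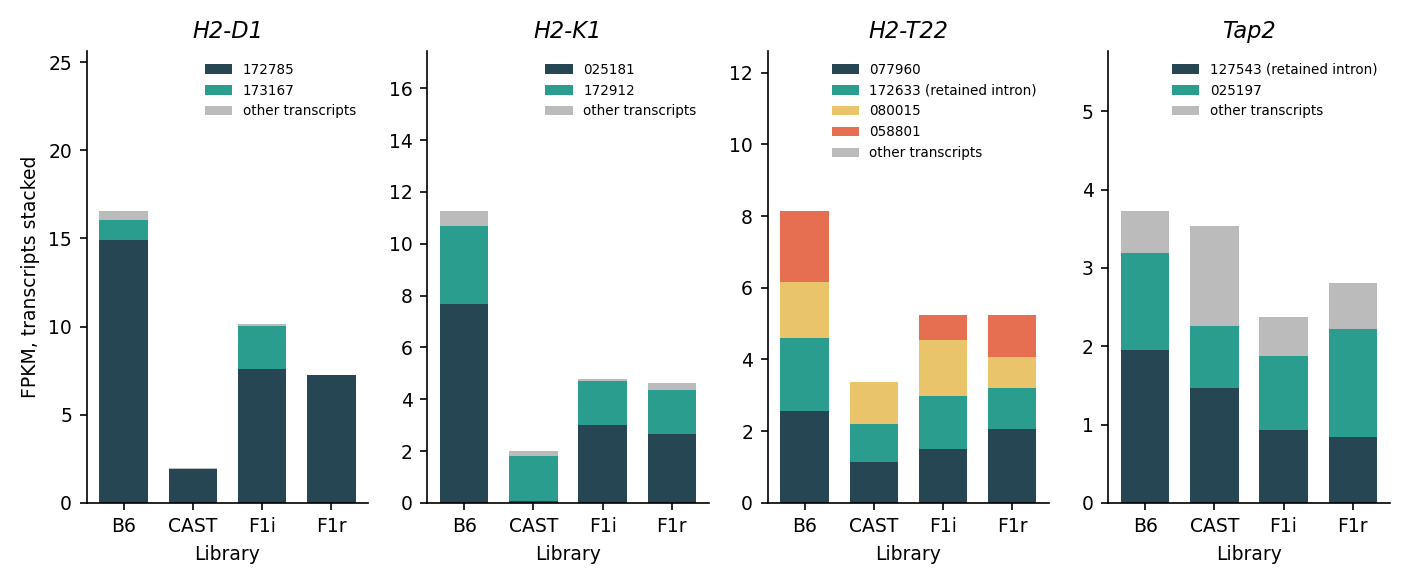
FPKM of single transcripts stacked per library for 4 genes, named by the last 6 digits of their identifiers, with remaining transcripts in grey. In H2-K1 the dark block, ENSMUST00000025181, is 7.67 FPKM high in B6 and 0.0594 in CAST, while the block above it is between 1.71 and 3.02 in every library.

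In H2-D1, ENSMUST00000172785 (2102 bases) carried the difference, at 14.9 FPKM in B6 and 1.89 in CAST, with F1i at 7.60 and F1r at 7.23. A 391-base fragment of the gene's 3′ part, ENSMUST00000173167, was at 1.15 FPKM in B6 and 2.40 in F1i and was listed at 0 in CAST and F1r. H2-T23 was almost wholly 1 transcript (92.3% to 96.4% of its FPKM). In Tap2 the retained-intron transcript ENSMUST00000127543 held 52.6% of the gene's FPKM in B6 and 41.5% in CAST, with F1i at 39.5% and F1r at 29.8%, and the full coding transcript ENSMUST00000025197 was highest in F1r at 1.38 FPKM and lowest in CAST at 0.796. In Tap1, ENSMUST00000170086 held between 71.5% and 92.5%. B2m is listed with 1 transcript, so its value involves no such division.

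Hybrids against parents asked whether class I expression lay between the strains. Each hybrid FPKM was placed as a share of the way from B6 (0) to CAST (1). By this measure H2-D1 was at 0.439 in F1i and 0.641 in F1r, H2-K1 at 0.701 and 0.717, H2-T22 at 0.605 and 0.608, and H2-T23 at 0.666 and 0.434. All 8 of these positions lay inside the parental range. Their medians were 0.636 in F1i and 0.624 in F1r, beside 0.504 and 0.493 over the 697 genes that were at least 2-fold apart. The contrast depended on the scale: on log2(FPKM + 1) the heavy chains were at 0.525 and 0.473 and the 697 genes at 0.527 and 0.521, and after rescaling to one total the values were 0.742 and 0.509 against 0.445 and 0.441. The parental libraries that chose these genes also set the scale, and lower RNA and poorer alignment of CAST reads cannot be told apart here either. The mean of the hybrids against the mean of the parents was past the rule for 0 of 7 genes in either direction, against 0.0436% higher and 0.102% lower over all genes (0.145% together). The most negative values were -0.42 in H2-K1 and -0.37 in Tap2, and the highest was 0.09 in Tapbp.

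F1r was compared with F1i because reciprocal crosses have the same autosomal alleles and differ in which strain was the mother, though the labels do not say which dam a name stands for. None of the 7 genes passed the rule, against a background of 0.233% higher and 0.262% lower (0.495% together). H2-D1 had the most negative value, -0.44, and H2-T23 the most positive, 0.24. For H2-D1 most of the gap was in the short ENSMUST00000173167, since the main transcript was at 7.60 and 7.23 FPKM in the 2 hybrids.

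Other genes of the pathway, and related genes outside it such as class II and interferon-stimulated genes, were grouped into 9 lists. Of 80 listed genes in the tables, 45 were compared between CAST and B6, and 5 were lower and 1 higher, beside 2.25% lower and 2.81% higher over all genes. Of the 5 lower genes, 2 were class II genes, 2 were interferon-stimulated genes and 1 was in the peptide loading list. Peptide loading and trimming had 1 of 8 lower and a median of 0.25. Tapbpl, the tapasin-related peptide editor, was the lower one, at 1.96 FPKM in B6 and 0.413 in CAST, with F1i at 1.003 and F1r at 1.27, so with B6 highest and CAST lowest as for the heavy chains. It passed the filter through libraries other than CAST, and it lies opposite Vamp1, which had 98.9 FPKM in B6 and 80.1 in CAST. The other 7 lay between -0.07 and 0.66 and did not pass, among them the chaperones Hspa5 (128 and 132 FPKM in B6 and CAST), Calr (113 and 136) and Canx (117 and 111), at the lower end, and the trimming peptidase Erap1 (2.12 and 3.93), at the upper.

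Among 14 other class I heavy chains only 2 had a mean of at least 1 FPKM over the 4 libraries. H2-Bl was higher in CAST, at 0.294 FPKM in B6 and 1.85 in CAST, with F1i at 1.13 and F1r at 0.832. Since 21.3% of its words recur elsewhere, and it passed the filter through CAST and F1i, its value is uncertain. H2-M3, which presents formylated peptides, had 1.5 FPKM in B6 and 1.97 in CAST. The class I-like molecules had 0 of 3 past the rule and a median of -0.78. Fcgrt, the neonatal Fc receptor, had 8.87 FPKM in B6 and 4.65 in CAST, Hfe of iron control had 2.67 and 1.27, and Mr1, which presents vitamin B metabolites, had 2.09 and 0.800. All 3 differences were negative. Mr1, the gene at the median, was under 1 FPKM in CAST and passed the filter through the other libraries, so this median is uncertain. With a pseudocount of 0.1, Mr1 (-1.28) and Hfe (-1.01) passed the rule and Fcgrt (-0.92) did not. The products of these genes pair with beta-2-microglobulin as the heavy chains do, and any link of that with their RNA levels was not tested.

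The proteasome cuts the peptides that are presented. Of the immunoproteasome and its activator, 0 of 4 were past the rule, with a median of -0.44. Psmb10 had 38.8 FPKM in B6 and 40.2 in CAST, Psme1 had 15.04 and 11.1, and Psme2 had 13.8 and 7.99. The Psme2 value is uncertain, as 33.5% of its words recur in Psme2b. Psmb9, which starts beside Tap1 on the other strand, was under 1 FPKM (0.844 and 0.327). The constitutive counterparts had 0 of 4 and a median of -0.25, with Psmb6 at 130.1 and 107 FPKM, Psmb7 at 90.4 and 78.2 and Psmb5 at 82.8 and 62.6. Transcription regulators of class I had 0 of 13 and a median of 0.02, with Nfyb at 16.8 and 17.1 FPKM, Creb1 at 12.3 and 13.4 and Rfxap at 9.01 and 13.6. Nlrc5, the class I transactivator, had 0.217 FPKM in B6 and 0.0375 in CAST, with F1i at 0.0705 and F1r at 0.174, and was not compared. Class I receptors, most but not all of them of T and NK cells, had 8 of 9 listed symbols in the tables. None was at 1 FPKM, with a summed level of 0.143 to 0.340 FPKM.

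Class II genes had 2 of 5 lower and a median of -0.91. The lower ones were H2-Aa, at 2.83 FPKM in B6 and 0.283 in CAST, and the invariant chain Cd74, at 3.71 and 1.03. The gene at the median, H2-Ab1, was above 1 FPKM in B6 alone and so passed the filter through that library. H2-Aa and H2-Eb1 were likewise under 1 FPKM in CAST and passed through other libraries, so the class II median is uncertain. Interferon-stimulated genes had 2 of 6 lower and a median of -0.55, Ifit3 at 5.25 and 0.738 FPKM and Ifitm3 at 10.5 and 4.41. Ifit3 was under 1 FPKM in CAST and passed the filter through the other libraries. Of the rest, Bst2 (-0.998) fell just short of the rule. Xaf1 (-0.11), Irf9 (0.05) and the most abundant gene of the list, Ifi27 (-0.10), differed little. The median lies between these and the more negative genes and is not the value of any gene. Words recurring in other genes made up 61.8% of Ifit3 and 20.5% of Ifitm3, so both values are uncertain. In the F1 libraries Ifitm3 was at 3.83 and 5.13 FPKM, so one hybrid lay below CAST. After rescaling to one total, Tapbpl (-0.91), Cd74 (-0.997) and Ifitm3 (-0.79) no longer passed.

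**Figure D4:**
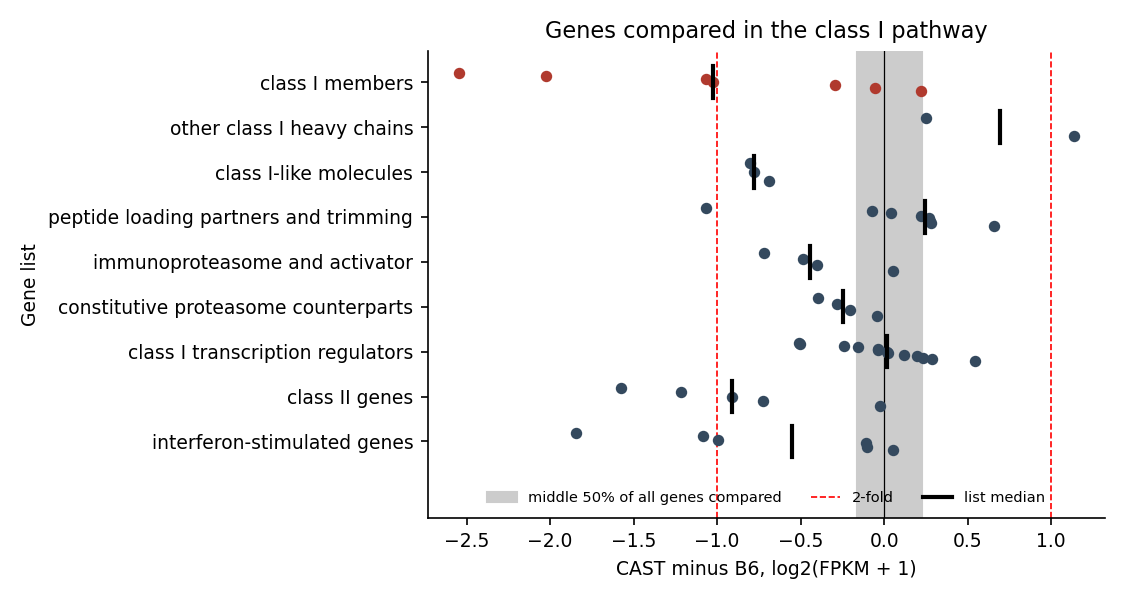
CAST minus B6 difference on the log2(FPKM + 1) scale for each gene compared, by list, with list medians as bars and the middle 50% of all genes in grey. On this scale, which understates the change of low genes, the class I members have the lowest median, -1.03. With a pseudocount of 0.1, the gene at the class I median, H2-T23, was at -1.23, and that at the class II median, H2-Ab1, at -1.52. In the peptide loading list Tapbpl lies at -1.06 while the other 7 lie between -0.07 and 0.66.

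Markers of cell types were set beside these values. The 13 microglial markers had 0 past the rule, but 12 of 13 were below 0, with a median of -0.64. Their summed level was 260 FPKM in B6 and 177 in CAST, with F1i at 213 and F1r at 188, and none was at 0. This is the order of H2-D1 and H2-K1, and the summed oligodendrocyte and meningeal markers had it too. The summed class I-like and constitutive proteasome genes shared it, and so did the total FPKM of the libraries. Those totals were 2357188 (B6), 2347990 (F1i), 1942710 (F1r) and 1857428 (CAST). The order is thus not particular to these cell types, and the marker sums are given without rescaling to one total. Cx3cr1 was at 8.11 and 6.06 FPKM in B6 and CAST, Tmem119 at 8.55 and 6.32, and P2ry12, the only one above 0, at 16.9 and 20.8. The most negative differences were those of C1qb (-0.97) and Trem2 (-0.92), named after their values were seen. The 10 endothelial markers summed to 82.8, 70.9, 72.1 and 76.5 FPKM in B6, CAST, F1i and F1r, with 1 lower, Ly6a (13.2 and 2.04 FPKM in B6 and CAST), singled out after its value was seen; Cldn5 (11.9 and 19.3), Pecam1 (2.14 and 2.50) and Cdh5 (1.19 and 1.03) did not pass. Of 8 T and NK cell markers, 6 were listed at 0 in CAST and in F1i, 5 in F1r and 2 in B6, and Cd3e and Cd8a were at no more than 0.0742 FPKM and Cd3g at 0. Most of the list's sum, which was between 2.199 and 2.98 FPKM, was Cd4, the only marker compared, at 1.70, 1.78, 2.19 and 2.47 FPKM (B6, CAST, F1i, F1r); Ptprc was at 0.744 FPKM in B6 and 0.419 to 0.435 in the others. The part of these cell types in the class I differences was not tested.

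The 7 members on chromosome 17 lie within 2.13 Mb, which allows their neighbours to be compared. From the start of Tapbp to the end of H2-T22, 78 other genes were compared, class I heavy chains left out. Of these, 3 were lower in CAST (3.85%) and 2 higher (2.56%), with a median of 0.05. Lower were Rps18, a ribosomal protein gene (255 FPKM in B6 and 48.8 in CAST), the prefoldin gene Pfdn6 (55.7 and 20.1) and H2-Aa; higher were Tcf19 (2.19 and 5.68) and the antisense A930015D03Rik. The Rps18 value is uncertain, as 22.4% of its words recur elsewhere. These shares are near those over all genes, 2.25% lower and 2.81% higher. Pfdn6 and Rps18 start 22.9 and 36.1 kb from the start of Tapbp and H2-K1 80.1 kb from it, so both lie near H2-K1. In the same stretch Wdr46 (24.8 kb, difference 0.15), B3galt4 (34.0 kb, 0.04) and Vps52 (39.9 kb, 0.17) did not pass the rule.

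**Figure D5:**
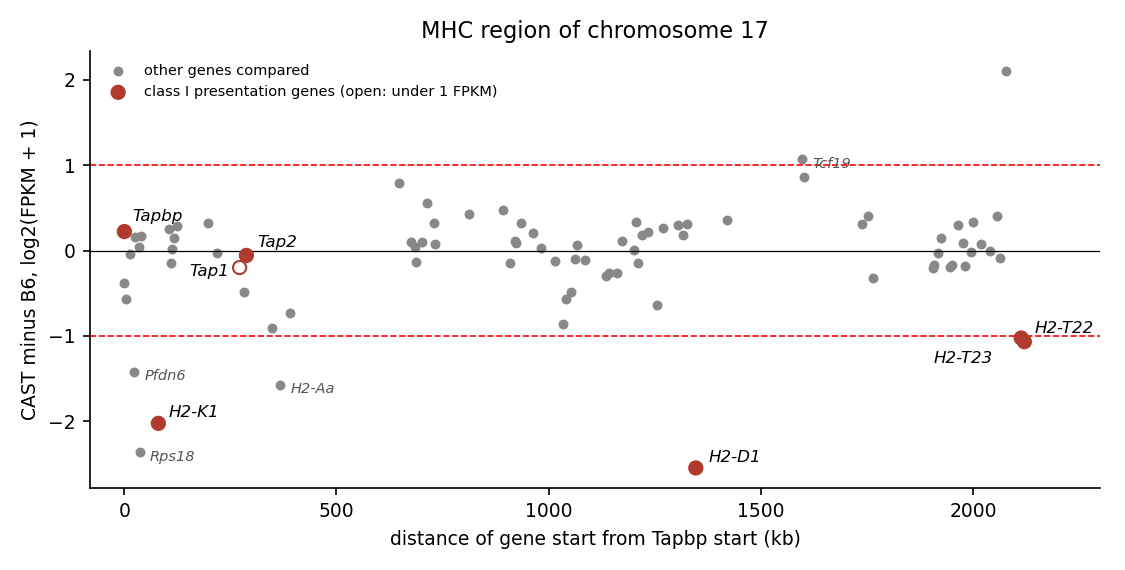
CAST minus B6 difference on the log2(FPKM + 1) scale against the distance of each gene's start from that of Tapbp, for the 7 members on chromosome 17 (red; Tap1 open, under 1 FPKM) and 78 other genes (grey), with dashed lines at 2-fold. The heavy chains sit at or under the lower line in 3 places, while 73 of the grey points lie between the lines; the unlabelled point near 2.1 is A930015D03Rik.

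Genes with the most similar profile over the 4 libraries were ranked by the distance between centred log2(FPKM + 1) values. Nearest to H2-D1 were Rpl21-ps8 (distance 0.19), Rps18 (0.19), Usmg5 (0.25), Abhd11os (0.26) and Gm14305 (0.31). None of these 5 belongs to antigen presentation. Nearest to B2m were H1fx (0.01), Mtg1 (0.02), Rab8a (0.02), Gemin6 (0.03) and Bloc1s1 (0.03), in a profile that hardly varied.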

How the data were processed

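For each library the authors deposited a table of FPKM by transcript. The submitters' processing notes name HISAT2, Cufflinks 2.2.1, Cuffdiff, Trimmomatic 0.36, bcl2fastq 2.20 and mm9. However, 99.5% of 128603 transcripts were found in GENCODE M21 and 97.2% of these had its GRCm38 start and end, so coordinates are GRCm38. Handling of strand, of fragments with several matches and of CAST alleles is not given in the sources used here. Read depth is not given; the smallest FPKM steps of long single-transcript genes put CAST at 0.725, F1i at 0.814 and F1r at 0.730 of the B6 depth.

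Transcripts of at least 200 bases were summed per gene, small RNA types left out. A pseudocount of 1, a mean of at least 1 FPKM and a 2-fold rule were used, with no test, as each group is 1 library. Alternatives were a pseudocount of 0.1, no filter, a mean of 5 FPKM, 2 other scalings, single or coding transcripts, all lengths and a 1.5-fold rule. The rule named all members, list genes past the rule or else the 3 most abundant, the first 3 genes per marker list, region genes past the rule and 5 nearest profiles; list, marker and overlapping genes beyond it (such as Erap1, Canx, H2-M3, Nlrc5, Cd4 and Mobp) were named after their values were seen. Members and lists were chosen with earlier results of these data known. Python 3.11.15, numpy 2.4.6 and pandas 2.3.3 were used, and the steps were tested on simulated data.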

Additional observations from a re-analysis of the deposited data

How the results depend on the processing

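With 1 library per group, no library could be left out. No paired analysis was possible because each group has 1 library. The 4 lower members numbered 2 after rescaling to a common total, and the 3 lower member transcripts numbered 5 at a mean of at least 0.5 FPKM. Besides that rescaling, H2-T22 left the rule with its highest transcript alone (-0.73). The 5 lower pathway genes numbered 10 with a pseudocount of 0.1, 1 at a mean of at least 5 FPKM, 2 after rescaling to a common total and 12 with the 1.5-fold rule; the 3 lower genes of the MHC region numbered 5 with a pseudocount of 0.1 and 7 with the 1.5-fold rule. The median heavy chain position moved from 0.636 to 0.742 in F1i and from 0.624 to 0.509 in F1r after rescaling, and to 0.525 and 0.473 on the log2 scale. Stat2, at 0.20 as a gene, was at -1.5 with its highest transcript alone. The other settings left each of these counts within 1.5 times its value, and both hybrid comparisons stayed at 0 members. Over all genes, 387 higher and 310 lower in CAST became 569 and 492 with a pseudocount of 0.1, 209 and 156 at 5 FPKM, 114 and 233 with coding transcripts alone and 829 and 834 with the 1.5-fold rule. The cause of these shifts was not tested.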

Other observations

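Markers of further cell types were summed in each library, with B6, CAST, F1i and F1r in that order. Oligodendrocyte markers came to 2006, 1236, 1692 and 1538 FPKM, with 1 of 6 lower in CAST, Mobp (280 and 102 FPKM in B6 and CAST); Mbp was at 1039 and 732 and Mog at 26.4 and 18.5. Choroid plexus markers came to 633, 388, 645 and 538 FPKM, with 1 of 4 lower, Kl (4.65 and 1.65), beside Ttr (621 and 381) and Folr1 (4.66 and 3.13). Meningeal markers came to 93.8, 52.4, 64.1 and 62.2 FPKM, with 1 of 5 lower, Mgp (42.2 and 10.7), beside Dcn (13.5 and 8.48) and Lum (1.64 and 1.27). Astrocyte markers came to 509, 539, 463 and 473 FPKM with 0 of 6 past the rule, and the members differed in sign: Gfap was at 57.2 and 67.5, Slc1a2 at 224 and 257, Aqp4 at 33.5 and 27.8 and Slc1a3 at 112 and 100.3. Pan-neuronal markers came to 1704, 1614, 1726 and 1773 FPKM with 0 of 8 past the rule, Snap25 at 577 and 499, Syt1 at 208 and 184 and Rbfox3 at 44.7 and 37.6.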
